A study of Mus musculus with 8 samples.

Results

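The acyl-CoA thioesterases described here were 9 genes, Acot1, Acot2, Acot4, Acot7, Acot8, Acot9, Acot11, Acot13 and Them4, out of 32390 rows of a table of read counts per gene from mouse gastrocnemius, a mixed-fiber calf muscle. The 9 genes were picked by name, but they were chosen from measured values too, since Acot1 and Acot2 had already been seen to be lower in the same genotype contrast. The genotype values of these genes are therefore a description and support nothing by themselves. All 9 genes had a row with counts, and all 9 passed the filter on low counts.

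The muscle came from 4 Nox4 fl/fl control mice and 4 MckCre:Nox4 fl/fl mice, called NOX4-deficient here, and bulk RNA-seq was used to ask how loss of NOX4 alters transcript levels in aged muscle. NOX4 is an NADPH oxidase that produces hydrogen peroxide. Both groups carried the floxed alleles, were 21 months old, were male and on a C57BL/6 background, and ate standard chow, so that Cre was the only labelled difference. Cre under the Mck promoter is made mostly by skeletal muscle and more weakly by the heart, and non-muscle cells of the tissue keep an intact Nox4 gene. The labels place all 8 libraries in batch 1.

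Acyl-CoA thioesterases cut the thioester bond of acyl-CoA and release a free fatty acid and coenzyme A, the reverse of the activation step that acyl-CoA synthetases carry out before oxidation or storage of fatty acids. The family joins unrelated folds. Acot1, Acot2 and Acot4 encode alpha/beta hydrolases of the cytosol, the mitochondrial matrix and peroxisomes, and Acot1 and Acot2 are known as genes that PPAR alpha and fasting induce, while the other genes encode hotdog-fold enzymes of the cytosol, mitochondria and peroxisomes.

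Acot1 and Acot2 are close paralogs, and how far reads can tell them apart bears on every value below. In the longest coding sequences of the GENCODE mouse transcripts (GRCm38), the pair was identical at 1178 of 1236 aligned bases (95.3%), with an identical stretch of up to 273 bases, which is longer than one 150-base read. All other pairs among Acot1 to Acot6 were between 73.8% and 85.4% identical. Of the 150-base windows of their transcripts, 209 of 2047 (10.2%) of Acot2 also occurred in another gene, and this gene was always Acot1, whereas 263 of 3803 (6.92%) of Acot1 occurred in another gene. The 60 coding bases that separate the pair best, at positions 823 to 882 of Acot1 and 946 to 1005 of Acot2 counted from the start codon, show how such reads are told apart, with the 13 differing bases in capitals.
Acot1: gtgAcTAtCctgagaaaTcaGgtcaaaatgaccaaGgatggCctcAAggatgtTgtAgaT
Acot2: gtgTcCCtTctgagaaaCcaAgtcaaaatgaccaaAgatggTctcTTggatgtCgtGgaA

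The coding parts of Acot1 and Acot2 were nearly the same, but the promoters were not. The 300-base windows around the starts of Acot1 and Acot2 in the RefSeq promoter table (GRCm38.p6, 250 bases before to 50 after the start) shared no stretch longer than 9 bases. The 150 bases before each start are printed for the 3 hydrolase genes, which lie close together on chromosome 12, because this is the group that holds both called genes.
Acot1, chr12:84009352-84009501, plus strand: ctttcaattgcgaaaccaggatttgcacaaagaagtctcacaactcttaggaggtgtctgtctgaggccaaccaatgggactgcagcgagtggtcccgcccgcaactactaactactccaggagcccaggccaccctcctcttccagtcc
Acot2, chr12:83987711-83987860, plus strand: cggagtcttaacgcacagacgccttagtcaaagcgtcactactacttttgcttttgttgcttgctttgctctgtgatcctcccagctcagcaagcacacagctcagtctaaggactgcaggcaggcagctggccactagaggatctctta
Acot4, chr12:84038229-84038378, plus strand: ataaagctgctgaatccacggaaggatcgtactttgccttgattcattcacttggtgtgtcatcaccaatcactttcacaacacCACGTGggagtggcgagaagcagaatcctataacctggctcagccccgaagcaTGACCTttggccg

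Capitals in the Acot4 sequence mark the E-box CACGTG, which starts 66 bases before the transcription start, and TGACCT, the reverse strand of AGGTCA, which starts 13 bases before it. Windows were searched on both strands for AGGTCA, the half-site of many nuclear receptors (found in 16.3% of 32851 promoter windows), for the direct repeat AGGNCANAGGNCA bound by PPAR and RXR (0.381%), for TGACNNNGC, the core of the antioxidant response element (12.4%), and for the E-box bound by clock factors (7.15%). AGGTCA can lie within the direct repeat, and its reverse TGACCT can share bases with TGACNNNGC. None of these letters occurred in the windows of Acot1, Acot2, Acot7, Acot8, Acot9 and Them4, and of 2 Acot11 windows 1 held an E-box, 154 bases before the start. Acot13 was not matched in that table. A window without these letters says nothing of sites elsewhere.

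The libraries held 16350548 to 19804661 counts on genes, with overlapping ranges in the 2 groups, and the 8 skeletal muscle markers (among them Ckm, Acta1 and Myh4) together gave 125195 to 163810 CPM (counts scaled to library size by TMM). Of 12725 rows tested with edgeR's quasi-likelihood test, 443 were called lower and 341 higher in NOX4-deficient muscle at a Benjamini-Hochberg adjusted p under 0.05 with a log2 fold change beyond 0.5 in size. Nox4, the targeted gene, was counted 85, 48, 35 and 70 times in the control libraries (replicates 1 to 4) and 29, 43, 42 and 37 times in the NOX4-deficient ones. Its log2 fold change was -0.65 (SE 0.29, adjusted p = 0.207, edgeR), the groups overlapped, and the counts cover the whole gene rather than the floxed part, so the label was not checked by this value. Each library is labelled as a separate sample. A p-value sets the group difference against the spread between these samples, which the fit moderates across genes. In bulk tissue, fewer cells of a type and less RNA per cell cannot be told apart.

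Acot2 and Acot1 were far lower in NOX4-deficient muscle, and the other 7 genes were not called in either direction. Called lower were 2 of the 9 genes, beside 3.48% of all rows tested, and called higher were 0 of 9, beside 2.68% of all rows. The groups did not overlap for 2 of the 9, beside 16.2% of all rows. These shares are not read further, because the genes were chosen with this contrast known. The median log2 fold change of the 9 genes was 0.03, and that of all rows tested was 0.01. Acot11 was the 1 gene of the 9 with a higher level at an unadjusted p under 0.05 in edgeR, and DESeq2 and pydeseq2 called it higher. Over all rows, 2951 of 12725 had an unadjusted p under 0.05 in edgeR, in either direction. This is the background for each such count here and below.

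Acot2, the mitochondrial matrix enzyme, had the highest level per length of the 3 hydrolase genes. The control libraries (replicates 1 to 4, as in every series of values here) held 1284, 1461, 1095 and 1707 Acot2 counts, or 77.0, 75.2, 58.6 and 88.8 CPM. The NOX4-deficient libraries held 227, 238, 313 and 314, or 13.7, 12.0, 16.5 and 18.4 CPM. Every control library stood far above every NOX4-deficient one, and the spread within each group was small beside this gap. The means were 74.9 ± 12.4 against 15.1 ± 2.84 CPM (control against NOX4-deficient, SD, n = 4), so that 20.2% of the control level was left (log2 fold change -2.31, SE 0.16, adjusted p = 2.34e-05, edgeR). Without control replicate 4, the library with the highest Acot2, the log2 fold change was -2.22.

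Acot1, its cytosolic paralog, was counted 162, 176, 97 and 103 times in controls and 12, 12, 19 and 9 times in NOX4-deficient mice. In CPM these were 9.71, 9.06, 5.19 and 5.36 for controls and 0.722, 0.607, 0.999 and 0.528 for NOX4-deficient mice. All 4 NOX4-deficient libraries lay below every control, while the controls fell into a higher pair (replicates 1 and 2) and a lower pair (replicates 3 and 4). The mean was 7.33 ± 2.39 against 0.714 ± 0.206 CPM (control against NOX4-deficient, SD, n = 4), a 10.1-fold lower fitted level (log2 fold change -3.34, SE 0.30, adjusted p = 7.32e-05, edgeR).

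Because reads may have been split between the paralogs, Acot1 and Acot2 were also summed to 1 row and refitted. The sum was 82.2 ± 13.0 against 15.9 ± 2.86 CPM (control against NOX4-deficient, SD, n = 4; log2 fold change -2.37, SE 0.16, adjusted p = 1.38e-05, edgeR). A split of reads between the pair cannot move this sum. With all 6 rows from Acot1 to Acot6 summed, the log2 fold change was -1.99 (SE 0.14).

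The share of the pair's counts assigned to Acot1 differed among mice. In control replicates 1 to 4 it was 11.2% (95% exact Clopper-Pearson interval 9.62 to 12.9), 10.8% (9.29 to 12.4), 8.14% (6.65 to 9.84) and 5.69% (4.67 to 6.86). In NOX4-deficient replicates 1 to 4 it was 5.02% (2.62 to 8.61), 4.80% (2.50 to 8.23), 5.72% (3.48 to 8.79) and 2.79% (1.28 to 5.22). The intervals cover counting error only. The group ranges met at control replicate 4 and NOX4-deficient replicate 3, and the means were 8.95% ± 2.56 and 4.58% ± 1.26 (SD, n = 4). Among the controls, the intervals of replicates 1 and 2 lay wholly above that of replicate 4.

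**Figure D1:**
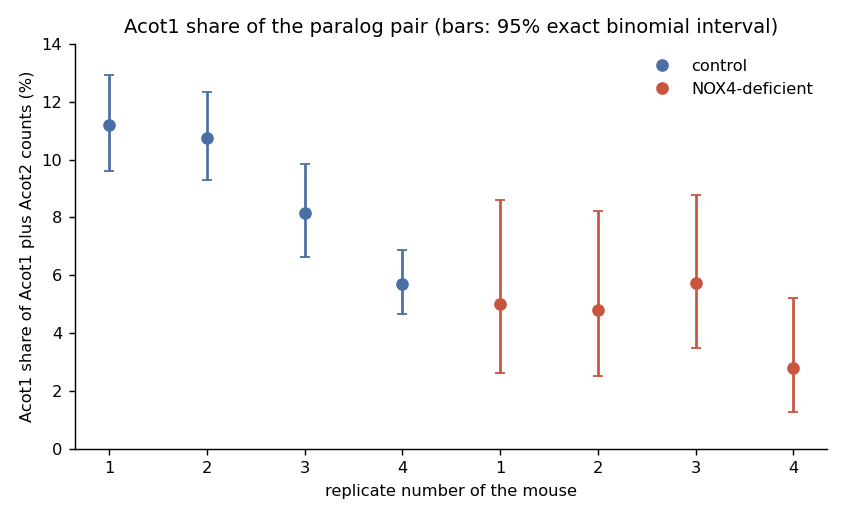
Share of Acot1 in the summed counts of Acot1 and Acot2 (y axis, percent) for each mouse (x axis, replicate number), with control mice in blue, NOX4-deficient mice in red and bars for the 95% exact binomial interval. Control shares ran from 5.69% to 11.2% and NOX4-deficient shares from 2.79% to 5.72%, with wider intervals in NOX4-deficient mice, whose pair had fewer counts.

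Acot4, the peroxisomal hydrolase of the same cluster, was near the limit of detection. Its counts were 13, 12, 5 and 12 in controls and 3, 11, 5 and 6 in NOX4-deficient mice. Annotated exons of Acot4 share 615 bases with 4732463B04Rik on the other strand, where unstranded libraries cannot tell reads of the genes apart. The groups overlapped, at 0.572 ± 0.216 and 0.338 ± 0.162 CPM (SD, n = 4), and the log2 fold change of -0.72 (SE 0.47, adjusted p = 0.389, edgeR) was not distinguishable from 0 at this depth. Of the rest of the cluster, Acot6 had 6.59 ± 0.889 against 6.38 ± 1.63 CPM (control against NOX4-deficient, log2 fold change -0.05, SE 0.19), and Acot3 and Acot5 had 0 counts in all 8 libraries. A count of 0 allows up to 3 counts, or 0.152 to 0.180 CPM, in a library. The clustered genes were unequal in level, and whether their genotype differences differ from each other was not tested.

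**Figure D2:**
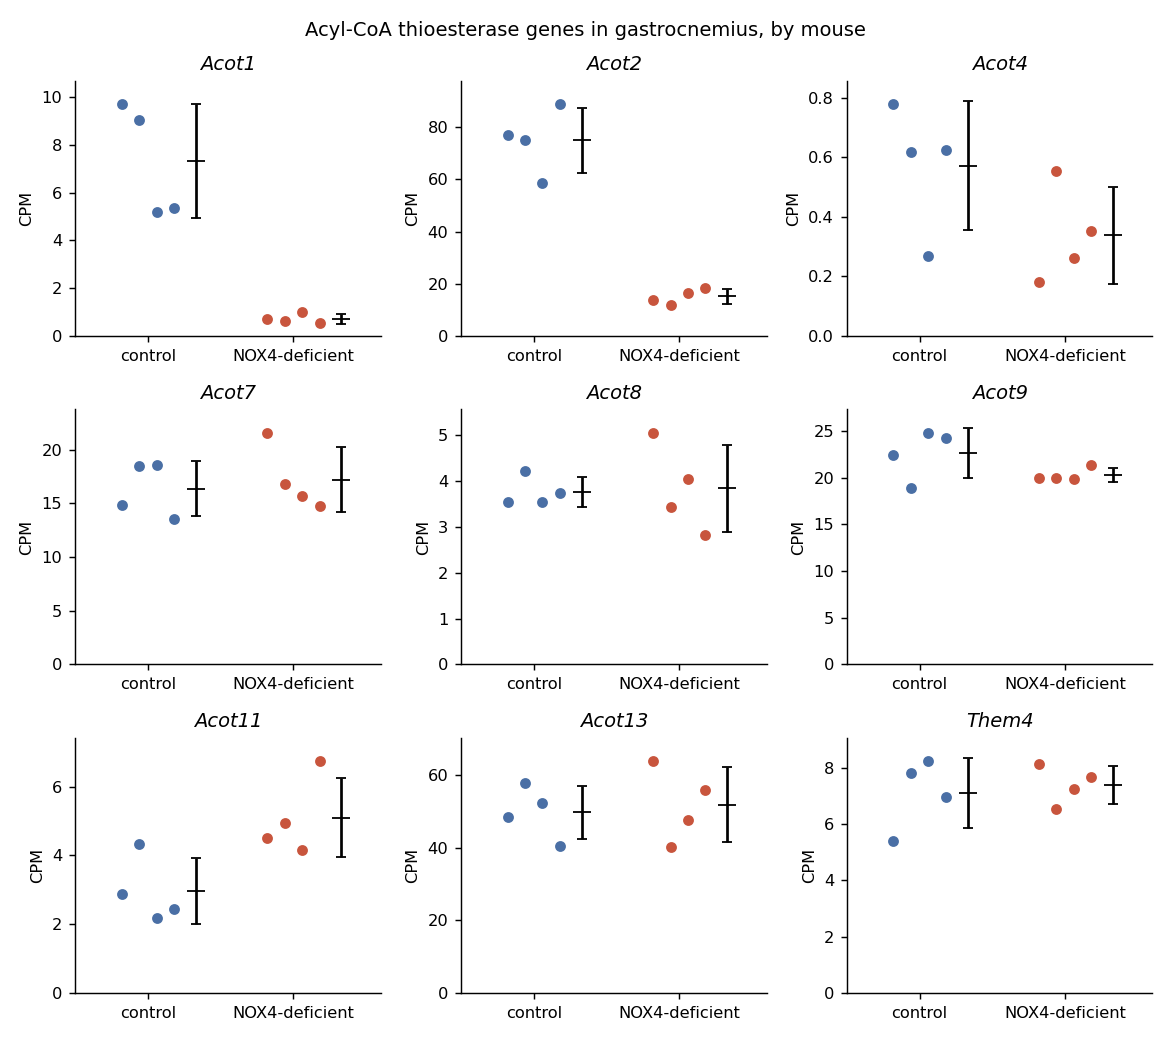
Level of each of the 9 genes (y axis, CPM, each panel from 0 with its own scale) in the 4 control mice (blue) and the 4 NOX4-deficient mice (red), with the group mean and SD in black. Acot1 and Acot2 are the panels without overlap between groups, and 3 of 4 NOX4-deficient mice stand above all controls for Acot11.

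Acot11, also called Them1 or BFIT, is a long-chain acyl-CoA thioesterase best known from brown fat. The controls held 48, 84, 41 and 47 Acot11 counts, or 2.88, 4.32, 2.19 and 2.44 CPM. The NOX4-deficient libraries held 75, 98, 79 and 115, or 4.51, 4.96, 4.15 and 6.74 CPM. Control replicate 2 was the only control within the NOX4-deficient range, and NOX4-deficient replicate 3 the only library of its group below that control. The means of 2.96 ± 0.952 and 5.09 ± 1.15 CPM (SD, n = 4) gave a log2 fold change of 0.78 (SE 0.24), which did not pass in edgeR (adjusted p = 0.0713). It passed without control replicate 2 (log2 fold change 1.02, adjusted p = 0.0315), in DESeq2 in R (adjusted p = 0.0372) and in pydeseq2 (adjusted p = 0.0387), so that its call rests on the tool and on 1 library. Fam151a, whose annotated exons overlap those of Acot11 by 1263 bases on the other strand, had no counts, so no Fam151a reads were seen that these unstranded libraries could have mixed with it. Of the 5 brown adipocyte markers Ucp1, the defining one, had 0 counts in all libraries, and their summed level was 4.94 CPM or less in controls against 4.28 to 7.08 CPM in NOX4-deficient mice. The 1 marker tested, Ppargc1b, had 2.54 ± 0.711 CPM in controls and 4.14 ± 1.07 CPM in NOX4-deficient mice, without overlap. Its log2 fold change was 0.70 (SE 0.25, unadjusted p = 0.0166, adjusted p = 0.117, edgeR), not called. The part of the brown adipocyte markers in the Acot11 value was not tested.

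The remaining hotdog-fold genes lay close to 0 in the genotype contrast. Acot13, or Them2, a mitochondria-associated thioesterase, had 40.4 to 57.7 CPM in controls against 40.1 to 63.8 CPM in NOX4-deficient mice (log2 fold change 0.06, SE 0.15, adjusted p = 0.856, edgeR). Acot9, a mitochondrial enzyme, had 18.9 to 24.8 CPM in controls against 19.8 to 21.4 CPM in NOX4-deficient mice (-0.16, SE 0.11, adjusted p = 0.451). Both ranges of NOX4-deficient levels overlapped those of the controls, and for Acot9 they lay wholly within them.

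Acot7, a cytosolic enzyme abundant in brain, had 13.6 to 18.6 CPM in controls against 14.8 to 21.6 CPM in NOX4-deficient mice, with log2 fold change 0.07 (SE 0.15, unadjusted p = 0.650, edgeR). Them4, a mitochondrial thioesterase also described as an Akt-binding protein, had 5.39 to 8.24 and 6.52 to 8.12 CPM, with log2 fold change 0.05 (SE 0.16, adjusted p = 0.883). Acot8, the peroxisomal hotdog enzyme, had 3.53 to 4.22 CPM in control and a wider 2.81 to 5.05 CPM with NOX4 deficiency, and its log2 fold change was 0.03 (SE 0.20, adjusted p = 0.957). With these standard errors, a difference as large as that of Acot2 would stand out, while one the size of their standard errors would not. Acot8 shares 246 exon bases with Snx21 on the other strand, and Snx21, at 17.9 ± 1.42 CPM in control, had a log2 fold change of 0.08 (SE 0.13). Reads of the 2 genes there cannot be told apart in unstranded libraries. Each of Acot7, Acot8, Acot13 and Them4 changed sign when 1 library was left out, so that none of them has a direction in these data.

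**Figure D3:**
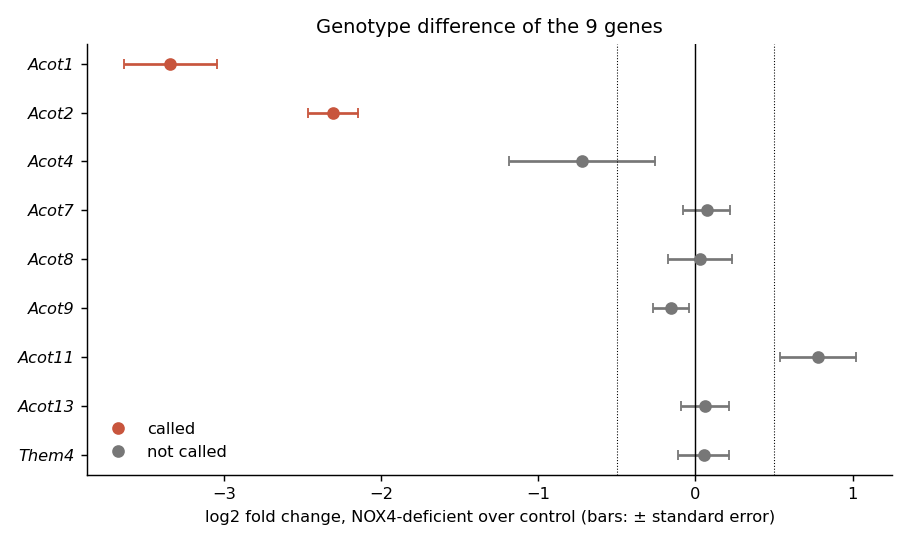
Log2 fold change of each of the 9 genes in NOX4-deficient over control muscle (x axis) with the standard error as bars, called genes in red, other genes in grey, and dotted lines at the size needed for a call. Acot1 (-3.34) and Acot2 (-2.31) stand apart, Acot11 (0.78) and Acot4 (-0.72) have the longest distances from 0 among genes not called, and 5 genes lie within 0.2 of 0.

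Per length of transcript, Acot13 was the leading thioesterase of this muscle. Levels of different genes are compared here as CPM per kb of merged exons, from GENCODE lengths. In control muscle Acot13 had 66.8 ± 9.80 and Acot2 34.1 ± 5.65 CPM per kb (SD, n = 4), with the lowest Acot13 library (54.3) above the highest Acot2 library (40.4). Next came Acot9 at 9.95 ± 1.18 and Acot7 at 7.71 ± 1.20, whose library ranges overlapped. Acot8 (1.88 ± 0.162), Acot1 (1.87 ± 0.610) and Them4 (1.77 ± 0.313) did not differ beyond their spread, and Acot11 (0.489 ± 0.157) and Acot4 (0.0857 ± 0.0324) were lowest. With the longest transcript as the length, the order of Acot8, Acot1 and Them4 became Them4, Acot8 and Acot1.

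The makeup of the family therefore differed between genotypes. Acot2 held 27.5% ± 5.38 of the summed per-length level of the 9 genes in control and 7.07% ± 1.29 in NOX4-deficient muscle, where its rank was 4 instead of 2. The share of Acot13 was 53.4% ± 5.19 in control and 70.5% ± 2.95 in NOX4-deficient muscle (SD, n = 4), although its own level was about the same. Shares sum to 100%, so a lower Acot2 raises the share of the others. The summed level was 117 to 136 CPM per kb in control and 80.4 to 116 CPM per kb in NOX4-deficient muscle, with means of 125 ± 8.01 and 98.5 ± 15.5.

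**Figure D4:**
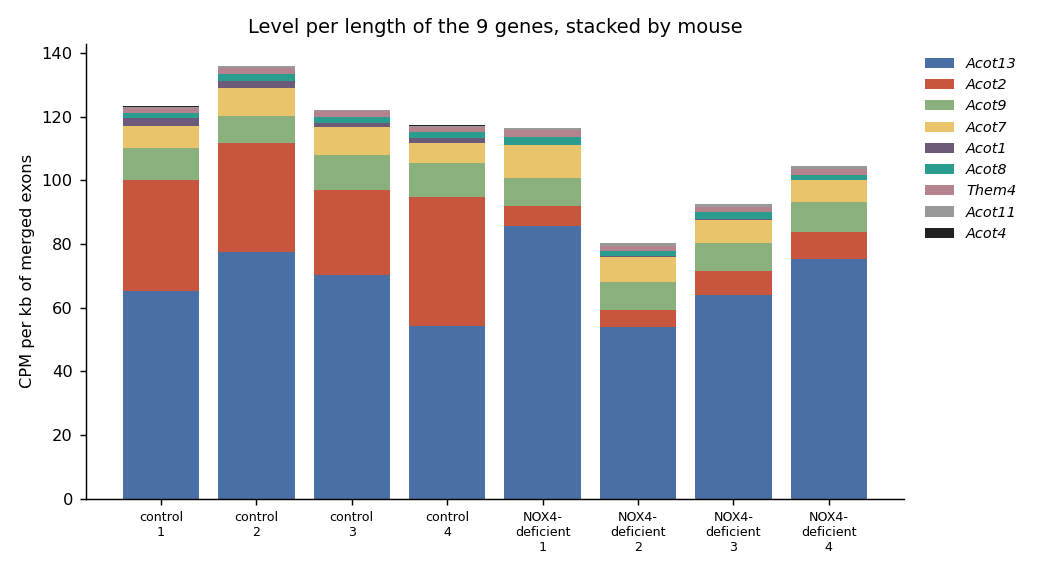
Stacked level of the 9 genes (y axis, CPM per kb of merged exons) in each control and NOX4-deficient mouse (x axis), one colour per gene. The Acot2 segment takes up 27.5% of the control bars on average and 7.07% of the NOX4-deficient bars, and Acot13 forms the largest segment in all 8 mice.

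Outside the 9 genes, the thioesterase family was mostly silent. Of 10 further thioesterase and related acyltransferase genes, 2 were tested, Acot6 (above) and Them6, and 0 were called in edgeR or pydeseq2. Them6 had 7.05 ± 1.16 against 9.97 ± 2.11 CPM (control against NOX4-deficient, SD, n = 4; log2 fold change 0.50, SE 0.18, adjusted p = 0.124 and unadjusted p = 0.0183 in edgeR), with 3 of 4 NOX4-deficient libraries above all controls. The other 8 had at most 10 counts in any library. Among these, Acot12, the liver acetyl-CoA thioesterase, had 0 counts throughout. Acot10, a copy of Acot9 with 97.2% identical coding bases, had 1 count in each of 2 libraries and 0 in the rest, so that little of the Acot9 signal could have been assigned to it.

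The genes that supply and use the substrates of thioesterases were described from lists written for the pathway. Acyl-CoA synthetases make the acyl-CoA that thioesterases cut, and 2 of 15 tested were called lower and 0 higher (5 lower and 1 higher at an unadjusted p under 0.05 in edgeR, and 4 and 0 called by pydeseq2), with a median log2 fold change of -0.09. Acsl1, the main long-chain acyl-CoA synthetase of muscle, fell from 362 ± 66.2 to 230 ± 38.0 CPM (log2 fold change -0.65, SE 0.15, adjusted p = 0.0195, edgeR). Slc27a1, a fatty acid transport protein with synthetase activity, fell from 108 ± 17.5 to 70.7 ± 12.0 CPM (-0.61, SE 0.14, adjusted p = 0.0243). Both falls were smaller than those of Acot1 and Acot2. The count of this list was 0 without control replicate 2 or without NOX4-deficient replicate 1, and 1 without NOX4-deficient replicate 3.

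Thioesterases also release coenzyme A. Of 11 tested genes of coenzyme A synthesis, transport and breakdown, 1 was called lower and 0 higher (3 and 1 at an unadjusted p under 0.05 in edgeR, and 1 and 0 called by pydeseq2). The called gene was Pank1, a pantothenate kinase that catalyses the rate-limiting step of coenzyme A synthesis, at 43.6 ± 14.4 against 15.1 ± 2.43 CPM (control against NOX4-deficient, log2 fold change -1.53, SE 0.22, adjusted p = 0.00219, edgeR). The median of the list was -0.05. Among 13 tested genes of acyl-CoA binding and carnitine transfer, 0 were called by edgeR or pydeseq2 in either direction, 1 of them, Slc25a20 (chosen after its values were seen), had an unadjusted p under 0.05, and the median was -0.10. Cpt1b, the muscle form of carnitine palmitoyltransferase, was listed at only 0.880 ± 0.119 CPM in control. This level is so low for the tissue that the row is not read as a measure of the gene. The row still enters the counts and the median of this list and of the PPAR alpha targets below.

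PPAR receptors and their targets were described because Acot1 and Acot2 belong to the genes they are known to induce. Of 9 receptor and coactivator genes, 2 were called lower and 0 higher (4 and 3 at an unadjusted p under 0.05 in edgeR, and 3 and 0 called by pydeseq2), with a median log2 fold change of -0.31. Lpin1, a phosphatidate phosphatase and coactivator, fell from 718 ± 169 to 265 ± 55.6 CPM (-1.44, SE 0.18, adjusted p = 9.61e-04, edgeR). Ppard, the most abundant of the 3 PPAR receptor rows in CPM not scaled for length, fell from 32.8 ± 3.14 to 21.9 ± 2.95 CPM (-0.58, SE 0.12, adjusted p = 0.0153). Ppara itself varied widely, at 7.99 ± 5.66 and 4.04 ± 3.14 CPM, and was not called (adjusted p = 0.377).

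Of 28 tested PPAR alpha targets other than the thioesterases, 7 were called lower and 0 higher (11 and 0 at an unadjusted p under 0.05 in edgeR, and 7 and 0 called by pydeseq2), with a median log2 fold change of -0.32. Cat, the peroxisomal enzyme that breaks down hydrogen peroxide, fell from 205 ± 16.1 to 82.5 ± 10.7 CPM (-1.31, SE 0.11, adjusted p = 5.54e-05, edgeR). Plin5, a lipid droplet protein of oxidative tissue, fell from 29.4 ± 6.26 to 8.84 ± 2.53 CPM (-1.74, SE 0.21, adjusted p = 7.33e-04). Mlycd, the decarboxylase of malonyl-CoA, fell from 123 ± 9.90 to 68.9 ± 13.5 CPM (-0.83, SE 0.14, adjusted p = 0.00476). The other 4 called targets were Slc25a34, Pdk4, Cd36 and Acadl, and 21 were not called. Of the acyl-CoA dehydrogenases and trifunctional protein subunits of mitochondrial beta-oxidation (named after their values were seen), Acadl was called lower at a log2 fold change of -0.64 (SE 0.16, adjusted p = 0.0264, edgeR), and Acadvl (-0.30), Hadhb (-0.19), Hadha (-0.18) and Acadm (0.03) were not called. Without control replicate 2, 4 targets were called. Like the 9 genes, the lists were written with earlier results of these data known.

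**Figure D5:**
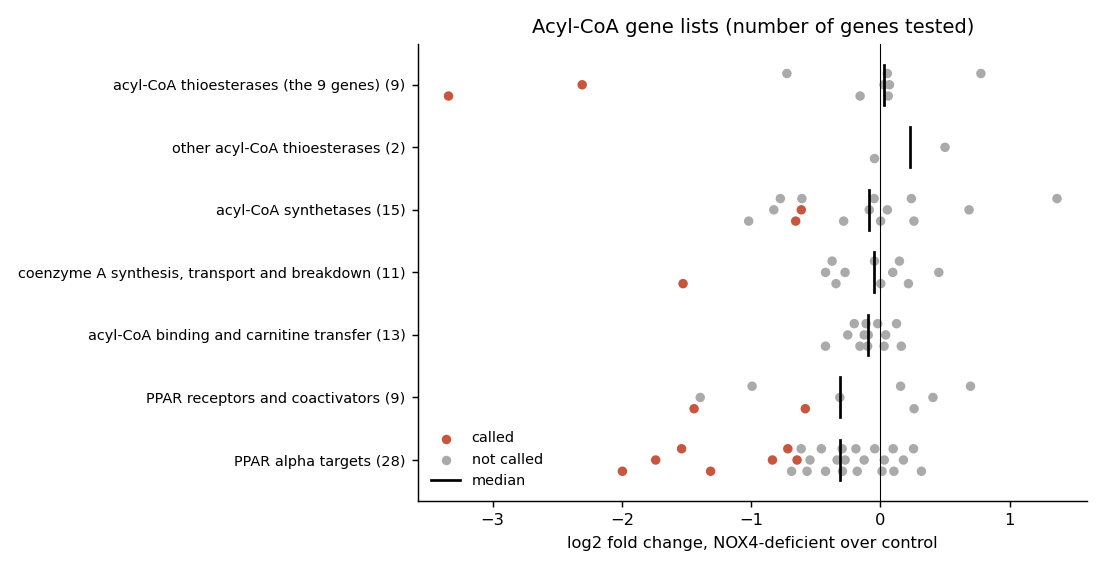
Log2 fold change in NOX4-deficient over control muscle (x axis) of each tested gene of the 9 thioesterases and of 6 further lists (y axis, number tested in brackets), with called genes in red and the list median as a black line. Acot1 and Acot2 are the lowest points of the plot, the called genes of the other lists are all on the lower side, and the list medians lie between -0.32 and 0.23.

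The genes whose levels followed Acot2 most closely over the 8 libraries were Srxn1 (Pearson r of log2 CPM 0.998), Hnrnpc (0.989), Colgalt1 (0.989), Cat (0.987) and Sphk2 (0.985). Srxn1 encodes sulfiredoxin, which repairs oxidized peroxiredoxins and is known as a target of NFE2L2. Its level was 171 ± 35.6 against 29.6 ± 4.52 CPM (control against NOX4-deficient, log2 fold change -2.53, SE 0.16). The points share the genotype difference and their libraries, so that r is a description and carries no test. Among the 9 genes, r with Acot2 was 0.962 for Acot1, 0.588 for Acot4, 0.540 for Acot9 and -0.73 for Acot11.

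Several lists that mark feeding state, time of day or other cells moved with the low Acot1 and Acot2. Of 11 tested fasting and glucocorticoid responsive genes, 8 were called lower and 0 higher (10 and 0 at an unadjusted p under 0.05 in edgeR, and 9 and 0 called by pydeseq2), and their summed level was 2240 to 4712 CPM in controls against 1029 to 1182 CPM in NOX4-deficient mice. Of 14 clock genes, 2 were called lower (Arntl and Npas2) and 4 higher (Per3, Dbp, Hlf and Ciart), with sums of 751 to 885 and 895 to 1048 CPM. The 3 blood cell markers, 2 of which were called higher, summed to 47.6 to 52.7 CPM in controls against 72.3 to 159 CPM in NOX4-deficient mice. None of these 3 sums overlapped between groups, and their part in the values of Acot1 and Acot2 was not tested.

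Markers of fiber type and of other cells were also measured, and their part in the values of Acot1 and Acot2 was not tested. The 9 slow-fiber markers had 0 called genes in edgeR and pydeseq2, 0 at an unadjusted p under 0.05, a median log2 fold change of 0.62 with all 9 above 0, and sums of 1013 to 1977 CPM in controls against 1239 to 2825 CPM in NOX4-deficient mice, whose ranges overlapped. The 8 adipocyte markers had 0 called genes in both, 1 lower at an unadjusted p under 0.05, a median of 0.23, and sums of 183 to 320 and 175 to 230 CPM. Of the 7 tested macrophage and leukocyte markers 1, Cd163, was called lower and 0 higher (3 and 0 at an unadjusted p under 0.05 in edgeR, and 1 and 0 called by pydeseq2), with a median of -0.47 and sums of 19.0 to 48.5 CPM in controls against 14.8 to 25.5 CPM in NOX4-deficient mice. Of the endothelial markers 1 of 6 was called higher (median 0.05), and of the fibroblast and tendon markers (7 tested, median 0.61) and nerve and Schwann cell markers (6 tested, median 0.43) 0 were called in edgeR, with 2 higher in each at an unadjusted p under 0.05 and 1 nerve gene called higher by pydeseq2. The 6 cardiac muscle markers summed to 78.0 CPM in control replicate 4 and to 2.28 to 4.75 CPM in the other 7 libraries, with Myl7 at 0 counts throughout. Without control replicate 4, the log2 fold changes of Acot1 (-3.47) and Acot2 (-2.22) were close to those with it (-3.34 and -2.31), and both genes were still called.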

How the data were processed

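Poly(A) RNA from the gastrocnemius of 8 mice gave unstranded paired-end libraries, which were processed by the authors with the nf-core RNA-seq pipeline; STAR and GRCm39 are named in the submitters' processing notes, and the annotation and the settings of the counter, including how it treated reads that fit several genes, are not given in the sources used here. The authors deposited raw counts per gene, 1 column per mouse, without normalization, and 0 columns of values were left unmatched. Reads that fit both Acot1 and Acot2 may have been split, assigned or dropped at that step.

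The counts were analysed in R 4.3.3 with edgeR 4.0.16 (TMM, filterByExpr, robust glmQLFit, glmQLFTest, genotype as the only term, limma 3.58.1) over 12725 of 32390 rows with Benjamini-Hochberg adjustment, and calls needed an adjusted p under 0.05 with a log2 fold change beyond 0.5 in size. The common biological coefficient of variation was 0.174. All replicate pairs differed by more than sampling noise, with chi-square values of 13.6 to 57.4 per degree of freedom. The members, lists and tests were chosen with earlier results of these data known, and no set test was run. Named were the 9 genes, Nox4, the 3 called genes with the smallest p of each pathway list, the 5 rows most like Acot2 by Pearson r of log2 CPM (prior count 2), and genes of the technical lists. Them6, Acot6 and the other family members, Ppara, Slc25a20, Cpt1b and the genes of beta-oxidation lie outside this rule and were named after their values were seen. Also outside it were the remaining called PPAR alpha targets and the genes whose exons overlap those of a member. Rows named by a repeated symbol stand for the row with most counts. The fit was tested on simulated data. Alternatives were other scaling factors, filters and thresholds, a fit that was not robust, the replicate number as a block, each library left out, DESeq2 1.42.0, pydeseq2 0.5.4 and summed paralogs. Counts per list without each library were added after the data were seen.

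Coding identity, shared 150-base windows, exon lengths and exon overlaps came from GENCODE for GRCm38 and promoters from RefSeq GRCm38.p6, matched by symbol with Biopython 1.88 used for alignment, so no gene coordinates of the counted build are given. Exact binomial intervals were computed with scipy 1.17.1.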

Additional observations from a re-analysis of the deposited data

Results flagged for a closer look

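In groups of 4, a library was marked where its gap to the nearest other library took up more of the group's range than Dixon's 95% critical value allows, and 8 of 66 groups were marked where chance at 1 in 20 gives 3.3. Among the thioesterases only Acot9 was marked, with 21.4 CPM in NOX4-deficient replicate 4 against 19.8 CPM or slightly more in the others. Nox4 was 1.74 CPM in NOX4-deficient replicate 1 against 2.17 to 2.21 CPM. The sum of the acyl-CoA synthetases was 569 CPM in NOX4-deficient replicate 4 against 460 to 478 CPM.

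Of the marker sums, slow-fiber markers reached 1977 CPM in control replicate 2 (1013 to 1175 CPM in the others) and 2825 CPM in NOX4-deficient replicate 4 (1239 to 1306 CPM). Adipocyte markers reached 320 CPM in control replicate 1 (183 to 204 CPM) and brown adipocyte markers 7.08 CPM in NOX4-deficient replicate 2 (4.28 to 4.51 CPM). Cardiac muscle markers reached 78.0 CPM in control replicate 4 (2.62 to 3.60 CPM).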

How the results depend on the processing

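Of 163 fold change values of the 9 genes and Nox4 under alternatives, 152 kept their direction and side of the threshold, 4 passed it in addition and 7 turned in sign. Acot1 and Acot2 were called lower in every fit that held them, with log2 fold changes of -3.54 to -3.18 and -2.40 to -2.21 over single libraries left out. With at least 10 counts required in every library, 1 of the 9 genes was called lower, because Acot1, with 9 counts in 1 library, leaves that fit. Called higher was 1 of the 9 genes (Acot11) with DESeq2, with pydeseq2 and without control replicate 2, so that leaving out libraries gave 0 to 1. Acot4 passed only as part of the sum of Acot1 to Acot6 (-1.99). The signs that turned with 1 library left out were those of Acot13 (-0.043 to 0.17), Acot7 (-0.045 to 0.15), Acot8 (-0.12 to 0.16) and Them4 (-0.056 to 0.15). Without 1 library, 295 to 425 rows were called lower and 204 to 317 higher, the lowest both without control replicate 4, and 227 higher without control replicate 2. At an adjusted p under 0.01 there were 156 lower and 96 higher. Without 1 library, 0 to 3 acyl-CoA synthetases and 4 to 8 PPAR alpha targets were called lower. The cause of these moves was not tested. The labels do not say that equal replicate numbers pair the mice, and whether they do was not tested. Correlations of deviations were 0.22, 0.15, 0.04 and 0.04 for equal numbers, and not every library correlated best with its own number. With the replicate block, 543 rows were called lower and 390 higher, and of the 9 genes 2 lower and 0 higher. Depth limits Acot4 and the silent family members.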
